A study of Caenorhabditis elegans with 6 samples.

Results

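A set of 10 C. elegans genes encoding regulators of fat metabolism and of the response to foreign chemicals was followed in worms exposed to the organophosphorus insecticide chlorpyrifos (CPF). They were taken by name as mdt-15, nhr-49, nhr-80, nhr-13, nhr-66, nhr-8, sbp-1, skn-1, ahr-1 and elt-2. Of these 10 genes, 9 had a probe under their name, with 27 of the 22490 probes and 9 of the 18865 genes on the arrays. No probe carried the name of nhr-49, which was not analysed here.

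The compared groups were CPF worms and control worms of the wild-type strain N2, kept at 16 °C for 72 hours after the egg stage, fed the OP50 strain of Escherichia coli on agar plates, and collected as L3 to L4 larvae. The plates of CPF worms contained CPF in acetone, and those of control worms only the acetone. By the labels CPF was at 0.5 mg/ml. The methods of the study state that figure per litre instead, and the files do not settle the unit. RNA came from whole worms, so fewer cells of a type and less RNA per cell cannot be told apart. There were 6 two-colour arrays, each with 1 CPF and 1 control sample. CPF was in Cy5 on 3 of them (CPF Cy5 replicates 1 to 3) and in Cy3 on the other 3 (CPF Cy3 replicates 1 to 3). The methods of the study describe independent biological replicates for each treatment.

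These proteins act at different steps of gene control. MDT-15 is a subunit of Mediator, the complex that links transcription factors to RNA polymerase, and it serves as a coactivator for several of the other regulators. NHR-49, NHR-80, NHR-13, NHR-66 and NHR-8 are nuclear hormone receptors, SBP-1 is the worm SREBP, SKN-1 is the worm counterpart of Nrf, and AHR-1 is the aryl hydrocarbon receptor. ELT-2 is the GATA factor of the intestine, the tissue where worms store fat and detoxify much of what they eat. Many of these proteins are controlled after transcription, by ligands, by cleavage or by entry into the nucleus, and an array measures only their transcripts.

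The transcript levels of the 9 regulators did not pass the test in either direction. Their log2 fold changes, CPF over control, lay between -0.12 (nhr-8) and 0.13 (nhr-66), with a median of 0.0051. In the same samples 5 of 14 genes on a list of MDT-15-dependent detoxification genes were higher in CPF worms, by 0.85 to 2.28 on the log2 scale. That list was drawn up with earlier results of these arrays known, and the count ranged from 2 to 6 on leaving out 1 array. With limma and Benjamini-Hochberg adjustment over all genes, 0 of 9 regulator genes and 0 of 27 probes had an adjusted p below 0.05, where 1.19% of all genes (225 of 18865) and 0.934% of all probes did. By direction, 0.323% of all genes were called higher in CPF worms and 0.869% lower, and of all probes 0.258% higher and 0.676% lower. At an unadjusted p below 0.05 the counts were 0 genes and 1 probe, against 10.3% of all genes and 9.66% of all probes. A rank product, the method of the study, called 0 of the 9 as well, with a lowest percentage of false prediction of 0.941 among them, and it called 2.93% of all genes.

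Whole-series facts that bear on these values were as follows. Spots lay above background, meaning above their local background mean by more than 2 SD, for 35% to 56.9% of probes in CPF samples and 41.5% to 61.6% in control samples. CPF Cy3 replicates 2 and 3 stood apart from the other 4 arrays. Over 18865 genes, their log2 ratios correlated with those of the other 4 at -0.09 to 0.13 and with each other at 0.31, whereas the other 4 correlated among themselves at 0.32 to 0.58. The labelled stage was L3 to L4, and transcripts of other tissues and stages also differed. Genes for yolk proteins (vitellogenins) passed the test as lower in CPF worms in 4 of 6 measured cases, genes of sperm in 6 of 10, and epidermal genes in 2 of 12. The log2 fold change was below 0 for 6 yolk, 9 sperm and 6 epidermal genes. On leaving out 1 array, 0 genes of these 3 lists passed when that array was CPF Cy5 replicate 2, CPF Cy5 replicate 3 or CPF Cy3 replicate 3. When it was CPF Cy5 replicate 1, the counts were 1 yolk, 0 sperm and 0 epidermal genes, and when it was CPF Cy3 replicate 2 they were 1, 0 and 1. When it was CPF Cy3 replicate 1, they were 4, 9 and 2. With all arrays the rank product called 6 yolk, 9 sperm and 3 epidermal genes lower. No germline, intestinal, neuronal or muscle marker (of 15, 14, 11 and 10 measured) passed the test by limma. Of these lists the rank product called 1 germline gene lower (gld-1) and 1 muscle gene higher (myo-3), and 0 intestinal or neuronal genes.

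Detection set what could be seen for each regulator. Of the 27 probes, 7 were above background on all 12 samples, from the 6 genes mdt-15, nhr-80, nhr-66 (with 2 probes), nhr-8, skn-1 and elt-2. A further 18 were above background on 1 to 11 samples and 2 on none, namely 1 of 7 nhr-66 probes and 1 of 8 skn-1 probes. Those 2 have no fold change here. Another 3 probes, 1 of mdt-15 and 2 of nhr-66, were above background in 1 group only, on at most 2 samples, and also have no fold change here. The mean of that group did not exceed that of the other once the other's values below the detection limit were raised to it. No spot of the 27 probes was saturated. Each gene is represented below by its brightest probe, given as normalized log2 intensity. Levels are set side by side for 1 probe only, since probes differ in brightness for reasons other than transcript number.

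The coactivator mdt-15 (R12B2.5) had 9.09 as its median level in CPF samples (7.95 to 9.82) and 9.02 in control samples (8.54 to 9.33). The groups overlapped, and the CPF samples spread wider at both ends. Its log2 fold change was -0.06 ± 0.19 (SE, 6 arrays), with an adjusted p of 0.959 by limma. Both probes of transcript R12B2.5a are dimmer, and the one above background on 11 samples had -0.17 ± 0.24 (adjusted p = 0.909 by limma over probes). The spread between arrays was wide for this gene. The SD of the 6 log2 ratios was 0.55, more than for 88.0% of the 6408 probes above background on all samples.

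The nuclear receptors nhr-80 and nhr-13 act with NHR-49 on fatty acid desaturase genes. For nhr-80 (H10E21.3), the median level was 9.17 in CPF samples (8.83 to 9.72) and 9.07 in control samples (8.81 to 9.87). These ranges nearly coincide, and the log2 fold change was 0.01 ± 0.08 (adjusted p = 0.995, limma). For nhr-13 (Y5H2B.2), which was above background on 5 CPF and 4 control samples, the median was 8.08 in CPF samples (6.14 to 8.30) and 8.14 in control samples (6.05 to 8.36). Both groups held the same pair of dim arrays, and the log2 fold change was -0.06 ± 0.07 (adjusted p = 0.853, limma). The 6 ratios of nhr-13 lay within -0.16 to 0.09.

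NHR-66 is a partner of NHR-49 at another set of lipid genes. The nhr-66 (T09A12.4) probe of transcript c had a median level of 9.05 in CPF samples (8.78 to 9.54) and 8.85 in control samples (8.66 to 9.56). It was higher in the CPF sample on 5 of 6 arrays, by at most 0.34, and the log2 fold change of 0.13 ± 0.08 had an adjusted p of 0.664 (limma). A second bright nhr-66 probe, of transcript b, had -0.05 ± 0.08 (adjusted p = 0.923) and was higher in CPF on 2 of 6 arrays. The 2 probes thus had opposite signs and neither passed the test. Their ratios were among the steadiest of all bright probes, with SDs of 0.12 and 0.15 that exceeded those of only 4.10% and 8.02% of the 6408.

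NHR-8, a relative of the vertebrate sterol and xenobiotic receptors, is needed for resistance to several toxins in worms and for cholesterol balance. Its gene nhr-8 (F33D4.1) had a median level of 9.59 in CPF samples (9.07 to 10.21) and 9.56 in control samples (9.02 to 10.48). The groups overlapped over nearly their full range. The log2 fold change of -0.12 ± 0.09 had an adjusted p of 0.731 (limma), and the ratio was below 0 on 4 of 6 arrays.

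SBP-1 activates genes of fatty acid synthesis and desaturation. Its gene sbp-1 (Y47D3B.7), with 1 probe above background on 4 CPF and 5 control samples, had a median level of 8.48 in CPF samples (6.17 to 9.61) and 7.94 in control samples (6.61 to 10.03). The log2 ratios were 0.04, 1.05 and 0.32 on the arrays with CPF in Cy5, and -0.43, -0.23 and -0.44 on those with CPF in Cy3. The sign thus followed the dye, and no array with CPF in Cy3 was above 0. Averaged over the dye swap, the log2 fold change was 0.05 ± 0.13 (adjusted p = 0.949, limma).

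SKN-1 turns on glutathione synthesis and conjugation genes under oxidative and chemical stress. The brightest skn-1 (T19E7.2) probe, of transcript c, had a median level of 10.26 in CPF samples (9.24 to 11.45) and 10.29 in control samples (9.60 to 11.04). The CPF range enclosed the control range. The log2 fold change was 0.06 ± 0.16 (adjusted p = 0.950, limma). The lowest p of any regulator probe belonged to a dimmer skn-1 probe, of transcript b and above background on 11 samples. It had -0.30 ± 0.12, an unadjusted p of 0.0352 and an adjusted p of 0.454 by limma over probes, and was lower in the CPF sample on 5 of 6 arrays.

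AHR-1 pairs with AHA-1, the worm ARNT, and has known roles in the fate of neurons. The probe of ahr-1 (C41G7.5) was above background on 1 CPF and 1 control sample only. Its median was 6.77 in CPF samples (6.03 to 7.05) and 6.54 in control samples (6.45 to 6.87), near the background level in both groups. The fitted log2 fold change of 0.05 ± 0.11 (adjusted p = 0.938, limma) therefore says little about the transcript, and a difference was not detectable at this signal.

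The intestinal factor elt-2 (C33D3.1) was bright on all samples, with a median of 9.87 in CPF samples (9.42 to 10.55) and 10.01 in control samples (9.48 to 10.66). The log2 fold change was -0.06 ± 0.09 (adjusted p = 0.900, limma). On 5 of 6 arrays the ratio lay between -0.11 and 0.13, and on CPF Cy3 replicate 1 it was -0.50.

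**Figure D1:**
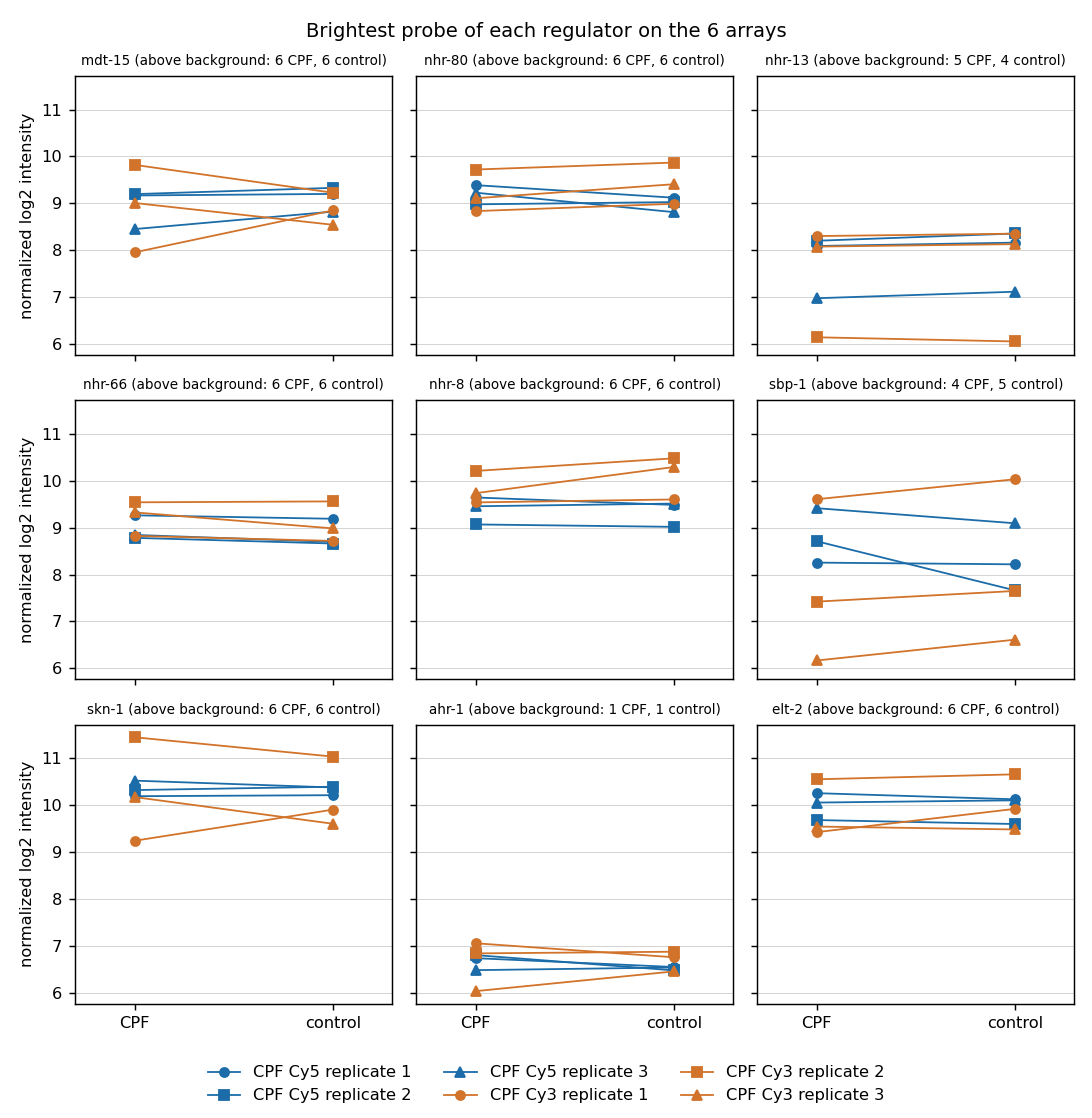
Normalized log2 intensity (vertical axis) of the brightest probe of each of the 9 regulators in CPF samples (left of each panel) and control samples (right), with a line joining the 2 samples of 1 array; colour gives the dye of the CPF sample and the symbol its replicate. The groups overlap in every panel, and ahr-1 stays between 6.03 and 7.05 on all 12 samples.

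The intervals show what size of change the fit on all arrays could have missed, for probes above background on all samples and under this background correction. They give no such guide for ahr-1, whose signal lay near background. For probes above background on only some samples, such as those of nhr-13 and sbp-1, they may be too narrow. With plain background subtraction the SE of sbp-1 was 0.21, against 0.13 here. The log2 fold change of the dim gene cyp-35A5 was then 2.24, against 1.48 here. Over the 9 genes, the 95% limits ran from -0.50 (mdt-15) to 0.42 (skn-1) on the log2 scale, or from 0.709 to 1.34 as a CPF over control fold. They were narrowest for nhr-13, at -0.22 to 0.10. The nhr-13 probe was above background on 5 CPF and 4 control samples only, and that of sbp-1 on 4 and 5. Over the 22 probes above background on at least 1 sample of each group, the limits ran from -0.79 to 0.46, both ends from 1 skn-1 probe of transcript a. Of these 22 probes, 6 had a log2 fold change above 0 and 16 below 0, with a median of -0.06, against a median of 0.0032 over all probes. Probes of 1 gene share their transcript, so the 22 are not separate measurements.

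**Figure D2:**
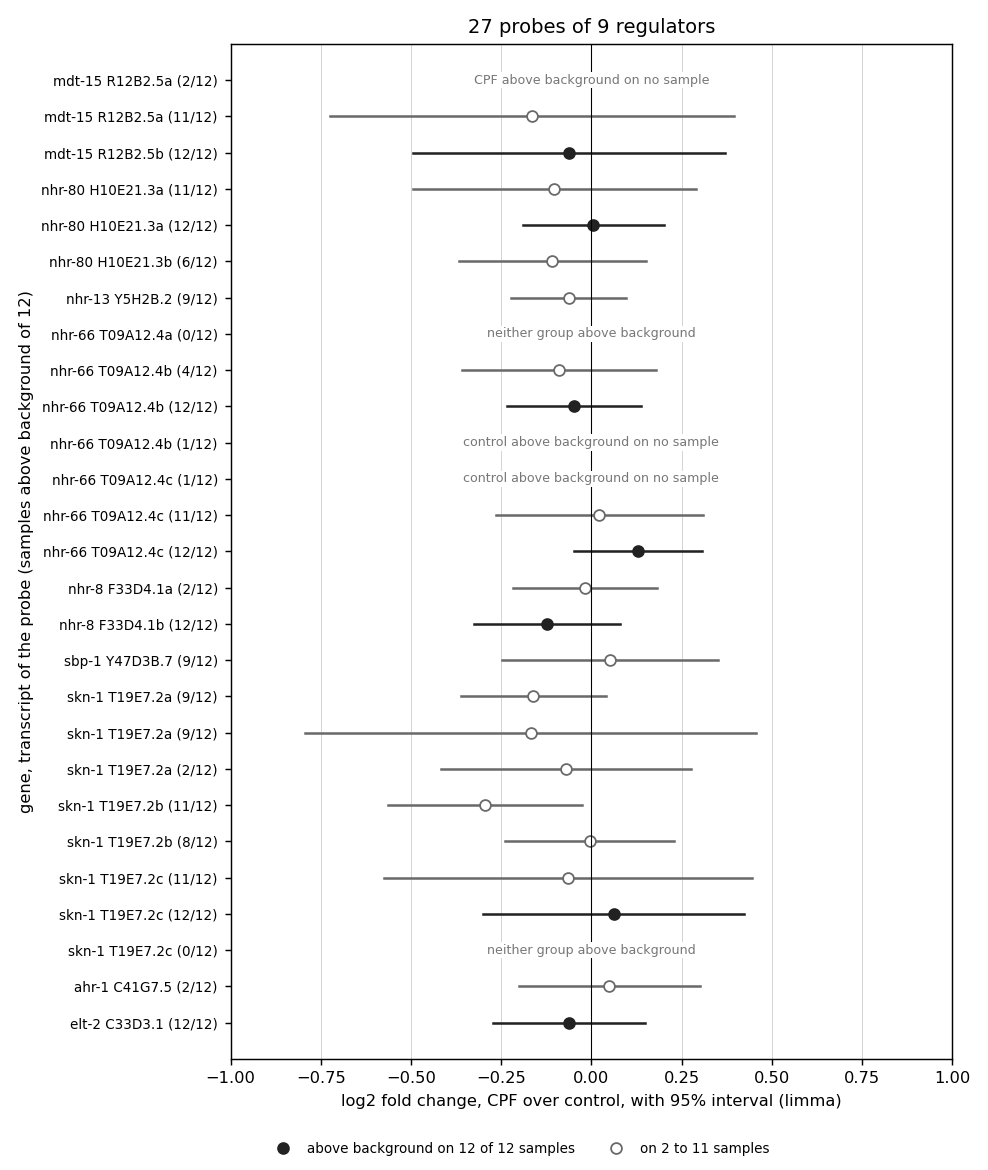
Log2 fold change, CPF over control, with its 95% interval from limma (horizontal axis) for the 27 probes, listed by gene and transcript with the number of samples above background; filled circles are probes above background on all 12 samples and open circles on 2 to 11, and the 5 probes with a group above background on no sample carry words in place of a value. All intervals but that of 1 skn-1 probe of transcript b (-0.57 to -0.03) include 0.

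The arrays did not repeat each other for skn-1 and mdt-15. Over the 7 skn-1 probes above background in both groups, the median log2 ratio was -0.22, -0.19 and -0.50 on CPF Cy5 replicates 1, 2 and 3, and -0.58, 0.32 and 0.57 on CPF Cy3 replicates 1, 2 and 3. Over the 2 such mdt-15 probes the medians on the same arrays were 0.14, -0.13, -0.50, -1.12, 0.44 and 0.48. Both medians were thus lowest on CPF Cy3 replicate 1, next lowest on CPF Cy5 replicate 3, and above 0 on CPF Cy3 replicates 2 and 3. The brightest skn-1 probe differed from the dimmer ones on CPF Cy5 replicate 3, where its ratio was 0.15. On CPF Cy3 replicate 3, 7 of 7 skn-1 probes and 2 of 2 mdt-15 probes were above 0, and on CPF Cy3 replicate 1, 6 of 7 and 2 of 2 were below 0. The nhr-66 and nhr-80 medians on CPF Cy3 replicate 1, over the 4 and 3 probes above background in both groups, were -0.03 and -0.16.

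Leaving out the 2 arrays that stood apart, a choice made after seeing the data, lowered the values of these 2 genes. That left CPF Cy3 replicate 1 as the only array with CPF in Cy3. Under the dye term it weighed as much as the arrays with CPF in Cy5 together. Its ratios were -0.89 for mdt-15 and -0.66 for skn-1. On CPF Cy5 replicates 1, 2 and 3 they were -0.03, -0.13 and -0.37 for mdt-15, and -0.02, -0.07 and 0.15 for skn-1. With only CPF Cy3 replicate 1 left out, mdt-15 had 0.17 and skn-1 0.25. Without CPF Cy3 replicates 2 and 3, the mdt-15 log2 fold change was -0.54 ± 0.11 (adjusted p = 0.0522, limma) and that of skn-1 -0.32 ± 0.10 (adjusted p = 0.140), and 0 of 9 genes passed. At the level of probes, 2 of 27 then passed, a skn-1 probe of transcript a at -0.84 ± 0.16 (adjusted p = 0.0415) and the mdt-15 probe of transcript b at -0.54 ± 0.11 (adjusted p = 0.0493). In that fit 3.84% of all probes and 3.28% of all genes (619) passed, against 225 genes with all 6 arrays. Within the first scan day (CPF Cy5 replicates 1 and 2 and CPF Cy3 replicate 1), mdt-15 had -0.49 ± 0.10 (adjusted p = 0.0563) and skn-1 -0.35 ± 0.10 (adjusted p = 0.110), and 1 skn-1 probe of transcript a passed (-0.73 ± 0.10, adjusted p = 0.0222), where 5.34% of all probes and 4.56% of all genes did. Within the second scan day mdt-15 had 0.08 ± 0.15 (adjusted p = 0.992) and skn-1 0.32 ± 0.15 (adjusted p = 0.683). On the first day, too, CPF Cy3 replicate 1 weighed as much as the arrays with CPF in Cy5 together. For the skn-1 probe that passed there its ratio was -1.33, against -0.07 and -0.19 on CPF Cy5 replicates 1 and 2. CPF Cy5 replicate 3 had that weight on the second day. The values within a day thus lean on 1 array each. Whether the days differ was not tested.

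Marker transcripts of other tissues also varied from array to array. The median log2 ratio of 10 muscle genes was -0.07, -0.02 and 0.22 for replicates 1, 2 and 3 with CPF in Cy5, and -0.67, 0.38 and 0.95 for those with CPF in Cy3. That of 15 germline genes was -0.58, -0.31, -0.14, -0.62, 0.10 and 0.34 on the same arrays, and that of 11 neuronal genes 0.20, 0.32, 0.02, 0.01, -0.20 and -0.15. For 14 intestinal genes it was -0.07, 0.04, -0.05, -0.24, -0.10 and 0.04, and for 12 epidermal genes 0.13, 0.09, 0.01, -0.14, -0.09 and 0.12. The yolk and sperm medians were below 0 on all 6 arrays. The muscle and germline medians had the same sign as those of skn-1 and mdt-15 on the 3 arrays with CPF in Cy3. For skn-1 the germline median had the same sign on all 6 arrays. On CPF Cy5 replicate 3 the muscle median was above 0 and those of both genes below 0. On CPF Cy5 replicate 1 the muscle and germline medians were below 0 and that of mdt-15 above 0. The neuronal, intestinal and epidermal medians on CPF Cy3 replicate 2 were below 0, as was the neuronal median on CPF Cy3 replicate 3. The summed normalized intensity of the muscle list ranged from 61546 to 108331 in CPF samples and from 44942 to 101033 in control samples, with 9 of 10 genes above background on all 6 samples of each group. That of the germline list ranged from 25392 to 64474 in CPF samples and from 41734 to 53841 in control samples, with 9 and 10 of 15 genes above background on all 6 samples, and nos-2 on none. The part of tissue composition in the skn-1 and mdt-15 values was not tested.

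**Figure D3:**
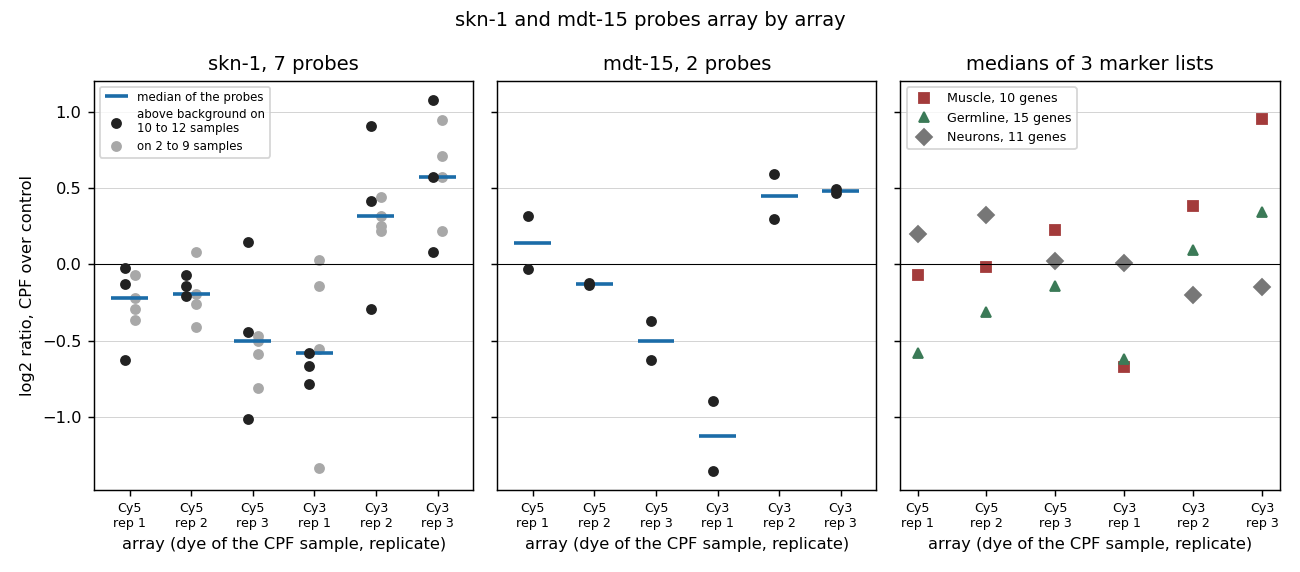
Log2 ratio, CPF over control (vertical axis), on each of the 6 arrays for the 7 skn-1 and 2 mdt-15 probes above background in both groups and, at right, the medians of 10 muscle, 15 germline and 11 neuronal marker genes; black points are probes above background on 10 to 12 samples, grey points on 2 to 9, and blue bars are medians. The skn-1 and mdt-15 medians are -0.58 and -1.12 on CPF Cy3 replicate 1, and 0.57 and 0.48 on CPF Cy3 replicate 3.

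For the 6 genes with a probe above background on all samples, the genes of most similar pattern were found by the root mean square difference of the 6 log2 ratios, over 5842 genes above background on all samples. For mdt-15 these were Y43F8B.1 (0.0815) and wbp-2 (0.0947), and for skn-1 they were hmg-1.1 (0.0477) and F59E12.6 (0.0772). For nhr-66 they were toe-1 (0.0253) and mrpl-38 (0.0534), for nhr-8 nuaf-3 (0.0580) and pcs-1 (0.0656), for nhr-80 ets-6 (0.0872) and akt-2 (0.107), and for elt-2 R13.1 (0.0486) and rsr-1 (0.0658). Their log2 fold changes ran from -0.14 (pcs-1) to 0.15 (mrpl-38). None of these 12 passed the test, which is no separate result, since they were picked for likeness to genes that did not pass.

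Lists of partners and relatives of the regulators were read in the same way. Of 25 measured subunits of Mediator other than mdt-15, 0 passed the test and the median log2 fold change was -0.02, against 0.0051 over all genes. The largest values among the bright ones were -0.27 ± 0.09 for mdt-18 (adjusted p = 0.276, limma), which was lower in the CPF sample on all 6 arrays, and 0.18 ± 0.08 for mdt-30 (adjusted p = 0.447). Of 19 further nuclear receptors of metabolism, 0 passed (median 0.06), with 0.20 ± 0.10 for nhr-23, a molting regulator, and -0.21 ± 0.11 for nhr-68, a receptor of propionate metabolism. Of 11 kinases and other controllers of SKN-1, 0 passed (median -0.0035), with -0.16 ± 0.09 for the kinase gene sgk-1 and 0.12 ± 0.10 for brap-2.

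AHR-1 depends on aha-1 and, in animals generally, on the chaperone HSP90. The log2 fold changes were 0.08 ± 0.12 for aha-1 and 0.17 ± 0.10 for hsp-90 (adjusted p = 0.904 and 0.673, limma), and 0 of 7 genes on that list passed. The hsp-90 spot was saturated in 1 CPF sample. Of 10 other GATA factors 0 passed (median 0.04). Among them elt-4, a close relative of elt-2, had -0.10 ± 0.12, and the endoderm gene end-3 had -0.43 ± 0.27, the largest value of the list. End-3 was above background on all 12 samples but its ratios ran from -1.90 to 0.40. In all, 0 of 72 measured genes on the 5 lists of partners and relatives passed, where 1.19% of all genes did.

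Downstream of the regulators the values were less even. Of 69 measured genes on the 5 downstream lists, 6 were higher in CPF worms (8.70%, against 0.323% of all genes called higher) and 0 lower, while the median log2 fold change was 0.00069. The vitellogenins, also made in the intestine, were not on these lists, and 4 of 6 were called lower (median -1.84). The lists were drawn up with earlier results of these arrays known, so these counts are descriptions. All 6 genes called higher were glutathione S-transferase or cytochrome P450 genes, and 5 stood on the MDT-15 detoxification list.

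Cytochromes of the CYP-35 family, several of which need MDT-15 for their induction, made up 4 of these 5. For cyp-35A4 the median level was 10.42 in CPF samples (9.97 to 10.70) and 8.19 in control samples (7.49 to 8.80), and the groups did not overlap. The log2 fold change was 2.28 ± 0.12 (adjusted p = 0.00150, limma). For cyp-35A3 the median level was 10.73 in CPF samples (9.65 to 11.12) and 8.19 in control samples (7.43 to 9.35), again without overlap, with 2.28 ± 0.14 (adjusted p = 0.00195). The cyp-35C1 median was 11.83 in CPF samples (11.73 to 12.05) and 9.97 in control samples (9.20 to 10.54), without overlap, with 1.92 ± 0.16 (adjusted p = 0.00593). In cyp-35A5, above background on 5 CPF and 4 control samples, the groups overlapped, with a median of 8.41 in CPF samples (7.73 to 9.23) and 6.80 in control samples (6.37 to 7.87), and the log2 fold change was 1.48 ± 0.19 (adjusted p = 0.0195). These genes are close relatives, and how far their transcripts bind each other's probes was not tested.

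The other 2 called genes encode glutathione S-transferases. For gst-5, the median level was 11.67 in CPF samples (11.43 to 11.84) and 10.63 in control samples (10.30 to 11.61). It was higher in the CPF sample on 6 of 6 arrays, by 0.85 ± 0.12 (adjusted p = 0.0264, limma). For gst-7, on the SKN-1 list, the median was 11.53 in CPF samples (9.48 to 12.02) and 10.30 in control samples (9.04 to 11.33), with 0.99 ± 0.16 (adjusted p = 0.0358) and 6 of 6 arrays higher. It was the only one of 16 SKN-1 targets to pass (median 0.09). The call for gst-7 was lost on leaving out CPF Cy5 replicate 1 (adjusted p = 0.161), CPF Cy5 replicate 2 (0.148), CPF Cy3 replicate 2 (0.0809) or CPF Cy3 replicate 3 (0.115). That for gst-5 was lost without CPF Cy5 replicate 1 (0.128), 2 (0.135) or 3 (0.0668) or CPF Cy3 replicate 3 (0.0990), for cyp-35A5 without CPF Cy5 replicate 2 (0.109) or CPF Cy3 replicate 3 (0.0950), and for cyp-35C1 without CPF Cy5 replicate 2 (0.0673). With no background correction gst-5 (0.102), gst-7 (0.144) and cyp-35A5 (0.148) did not pass. With plain background subtraction gst-5 (0.128), gst-7 (0.123), cyp-35A5 (0.0629) and cyp-35C1 (0.0629) did not pass, while cyp-35A3 and cyp-35A4 passed in all 24 alternatives.

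Well-known SKN-1 targets that did not pass were named for their role, after their values were seen. The rate-limiting enzyme of glutathione synthesis, gcs-1, had 0.03 ± 0.08 (adjusted p = 0.956, limma), and gst-4, a common reporter of SKN-1 activity, had -0.02 ± 0.11 (adjusted p = 0.982). At the lower end of the list gst-10 had -0.51 ± 0.15 (adjusted p = 0.217), below 0 on 6 of 6 arrays. Of the MDT-15 list, cyp-35A2 had 0.76 ± 0.22 (adjusted p = 0.223), while cyp-35A1 and cyp-35B2 were above background on no sample.

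None of the fat metabolism targets passed the test. Of 12 NHR-49 targets 0 passed, with a median of -0.16, and of 18 genes on the SBP-1 list 0 passed, with a median of -0.06. The 3 stearoyl-CoA and palmitoyl-CoA desaturase genes, which stand on both lists, did not move together. For fat-5 the median level was 10.65 in CPF samples (9.94 to 11.03) and 9.91 in control samples (9.62 to 10.67), and the log2 fold change was 0.57 ± 0.13 (adjusted p = 0.108, limma). For fat-7 the median was 11.54 in CPF samples (9.29 to 12.48) and 12.002 in control samples (10.93 to 12.54), with -0.55 ± 0.18 (adjusted p = 0.277). It was below 0 on 6 of 6 arrays, furthest on CPF Cy3 replicates 2 and 3, at -1.64 and -0.98. The third, fat-6, had -0.12 ± 0.13 (adjusted p = 0.833).

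The lipid-binding protein gene lbp-8, whose product carries a lipid signal out of the lysosome, had a median of 8.07 in CPF samples (7.92 to 8.49) and 7.37 in control samples (6.95 to 8.43). It was higher in the CPF sample on 6 of 6 arrays, by 0.59 ± 0.12, and its adjusted p was 0.0722 (limma). By the rank product, fat-5, fat-7 and lbp-8 fell below a percentage of false prediction of 0.05, at 0.0149, 0.0431 and 0.00783. The acyl-CoA synthetase gene acs-2, a fasting target of NHR-49 named here for that role, had -0.31 ± 0.16 (adjusted p = 0.606).

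Genes made in the intestine were listed as a check on the tissue of elt-2. Of 14 intestinal genes 0 passed, 13 were above background on all 6 CPF samples and 12 on all 6 control samples, and the median log2 fold change was -0.11 (-0.36 to 0.18, with 11 of 14 below 0). The largest among the bright ones were -0.25 ± 0.11 for ifb-2, an intermediate filament gene, and -0.22 ± 0.12 for the phosphatase gene pho-1 (adjusted p = 0.502 and 0.602, limma). Vitellogenins, made in the same tissue, had a median log2 fold change of -1.84. The yolk gene vit-2 had a median of 8.47 in CPF samples (6.53 to 9.68) and 10.54 in control samples (9.90 to 10.65), without overlap, and a log2 fold change of -2.10 ± 0.31 (adjusted p = 0.0290). Its call was lost without CPF Cy5 replicate 1 (0.0595), 2 (0.0673) or 3 (0.0816) or CPF Cy3 replicate 3 (0.120), and with no background correction (0.139) or plain subtraction (0.101).

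**Figure D4:**
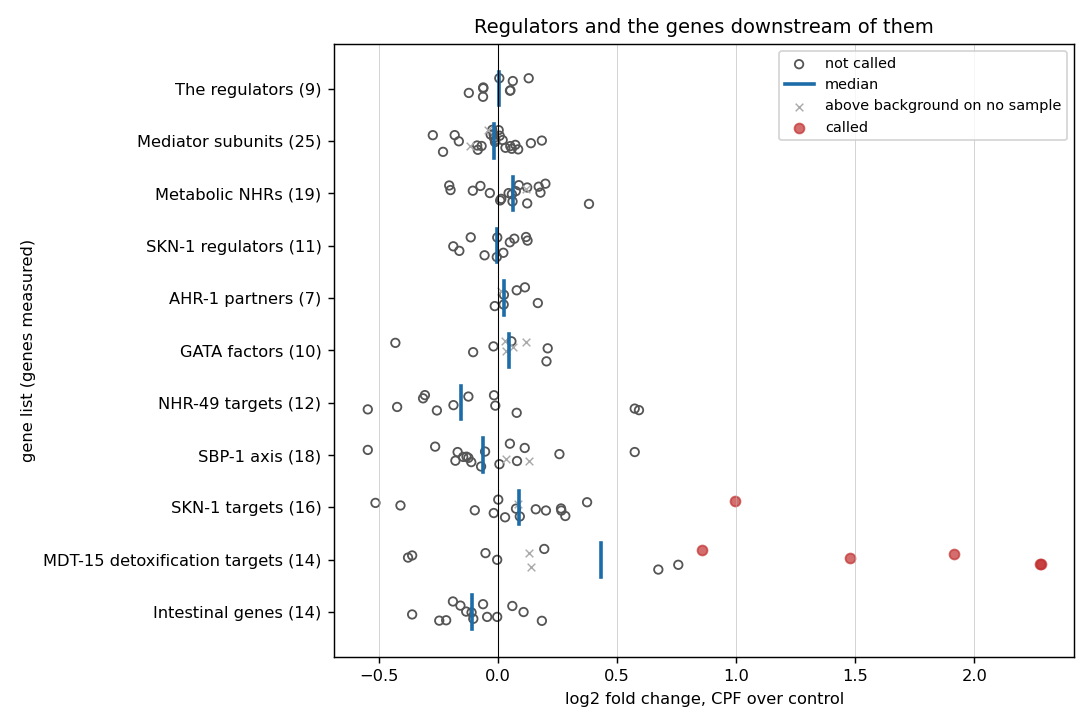
Log2 fold change, CPF over control (horizontal axis), of each measured gene of the regulators and of 10 gene lists (number of genes measured in brackets); red points passed limma at an adjusted p of 0.05, open circles did not, grey crosses were above background on no sample, and blue bars are medians. The 6 red points are gst-7 and 5 MDT-15 detoxification targets, between 0.85 and 2.28, while the 9 regulators lie between -0.12 and 0.13.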

How the data were processed

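Whole-worm RNA of CPF and control worms was compared on 6 two-colour 60-mer arrays from Washington University. The deposited intensity values were mean and median spot brightness and local background, read on a ScanArray Express scanner per the file headers, with the percent of saturated pixels per spot deposited beside them. The authors normalized with loess and Aquantile in limma, and their deposited table holds log2 ratios, which matched loess without background correction (r of at least 0.99996 on each array). Aligners and genome builds do not apply, and the authors' columns normalized by the scanner software were not used.

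Here the background was corrected with normexp (offset 50), followed by loess within arrays (control spots without weight) and Aquantile between arrays. The log2 ratio was fitted with limma 3.58.1 (R 4.3.3) on all 22490 probes, with treatment and dye as terms. A gene was its brightest probe. P-values were two-sided and adjusted over all 18865 genes, or all probes where a probe is named. Intervals are 95% intervals. Probes were named from locus tags through the WBcel235 gene table for 21382 of 22490 probes, 31 more through the platform's gene number, and 1077 kept the file's name. The fit was tested on simulated data. The number of arrays limits the precision.

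The members and the gene lists were chosen with earlier results of these data known. Named genes were the members, list genes past the threshold, the 2 bright genes of largest change per list and the 2 genes nearest in pattern to each bright member. Cyp-35A1, cyp-35A2, cyp-35B2, gcs-1, gst-4, fat-6, acs-2 and nos-2 were named besides, after their values were seen. Alternatives covered background, normalization, probe choice, dye, scan day, replicate numbers and left-out arrays. A spot counted as saturated from 25% of saturated pixels.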

Additional observations from a re-analysis of the deposited data

Results flagged for a closer look

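Among 86 values with 6 arrays each, 5 had 1 array whose distance to the nearest other array exceeded, as a share of the range, Dixon's 95% critical value. Chance alone gives about 1 in 20, and no regulator gene was among the 5. The P450 gene cyp-35A4 had a log2 ratio of 1.63 on CPF Cy3 replicate 2, below its other arrays. The SKN-1 controller brap-2 stood at -0.43 on CPF Cy3 replicate 3, while its other 5 ratios were above 0. The intestinal gene ifb-2 stood at -0.83 on CPF Cy3 replicate 1. The cuticle collagen gene col-19 was at -0.20 on CPF Cy3 replicate 2, closer to 0 than elsewhere. The median of the 25 Mediator subunits was -0.24 on CPF Cy3 replicate 3 and between -0.04 and 0.06 on the others.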

How the results depend on the processing

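No regulator gene passed under any of the 24 alternatives in which it was tested, with a lowest adjusted p of 0.0522 (mdt-15, without CPF Cy3 replicates 2 and 3). Ahr-1 and nhr-13 were tested in 22 of them and sbp-1 in 23. The signs of values this near 0 were not stable, and the following had the sign opposite to that with all arrays. With median foreground, nhr-80 was -0.11 and skn-1 -0.018. With the mean over all probes of a gene they were -0.069 and -0.086, and rab-3 (a neuronal gene) -0.026. With print-tip loess nhr-80 was -0.0040, and with plain background subtraction sbp-1 was -0.042. With scan day as a block skn-1 was -0.018. Within the first scan day nhr-80 was -0.023, nhr-8 0.021, skn-1 -0.35, elt-4 0.074, pho-1 0.0046 and unc-22 (muscle) -0.060. Within the second, mdt-15 was 0.079, sbp-1 -0.0069, ahr-1 -0.14, aha-1 -0.11 and sgk-1 0.013. Without CPF Cy3 replicates 2 and 3 (chosen after seeing the data), skn-1 was -0.32, pho-1 0.0026 and unc-22 -0.17. The causes were not tested.

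Leaving out 1 array at a time gave -0.20 to 0.17 for mdt-15, -0.046 to 0.070 for nhr-80, -0.093 to 0.16 for sbp-1, -0.054 to 0.25 for skn-1, -0.038 to 0.14 for ahr-1, -0.12 to 0.017 for elt-2, -0.22 to 0.016 for elt-4 and -0.038 to 0.14 for aha-1.

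The count of called genes, 225 with all arrays, was 19 without background correction and in the authors' table, 3 with plain subtraction, 145 with median foreground, 130 under a block for scan day, 861 and 139 within the scan days, 619 without CPF Cy3 replicates 2 and 3, 143 with spots of scanner code 3 only (chosen after seeing the data) and 553 by the rank product. Leaving out 1 array gave 7 (without CPF Cy5 replicate 2) to 313, and it gave 37 when the first array with CPF in Cy5 was dropped, 84 when CPF Cy5 replicate 3 was, and 24 when CPF Cy3 replicate 3 was. The share called higher was 27.1% with all arrays, 68.4% without background correction and 100% with plain subtraction. Arrays with the same replicate number correlated in their deviations at 0.16, 0.070 and 0.024. With arrays of other numbers the mean correlations were lower, at -0.099, -0.026 and 0.00066. The same-number values were small, and the numbers were not taken to pair the arrays in the main fit. With the replicate number as a block 60 genes were called, and no regulator was among them. The planned use of only the commonest scanner code was not run, because 0.232% of its spots were above background in both channels.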
